A study of Mus musculus with 4 samples.

Results

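The Siglec family examined here comprised 8 mouse genes encoding sialic acid binding lectins, namely *Siglec1*, *Siglec5*, *Siglece*, *Siglecg*, *Siglech*, *Cd22*, *Cd33* and *Mag*, out of 19946 genes that had a single symbol on the array. The rule listed the members by name, and each was read by 1 probe set. *Siglec5* stands for Siglec-F, which the array annotation lists as *Siglecf*. Alveolar macrophages (AM) had been lavaged from untreated mice of 8 to 10 weeks, and RNA from pooled animals was hybridised to 4 Affymetrix whole-transcript arrays, 2 of TREM2-/- AM and 2 of WT AM. TREM2-/- mice carried a null allele, not limited to macrophages, that had been backcrossed 10 times to C57/Blk6. WT mice were C57/Blk6, bought from a supplier and bred in the same facility, and were not described as littermates. The deposited values were log2 intensities after robust multi-array averaging, and each 1 unit is a doubling of signal.

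Siglecs are cell surface lectins that read sialic acids, the sugars capping most glycans of vertebrate cells, on the same cell or on neighbours. Most members carry inhibitory motifs in their cytoplasmic tail that recruit the phosphatases SHP-1 and SHP-2, and so dampen activating receptors. A minority lack such motifs, and some of these pair instead with the adaptor DAP12, encoded by *Tyrobp*, which also carries the signal of TREM-2. Siglec-F is a defining surface marker of mouse AM, used in the lung together with CD11c to tell them from other macrophages, and it also marks eosinophils.

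Of the 8 members, 7 lie on chromosome 7 and *Siglec1* on chromosome 2. In RefSeq order *Cd22* and *Mag* were neighbours, as were *Siglec5* and *Siglecg*, and 15 protein-coding genes stood between *Siglec5* and *Siglece*. The RefSeq start regions (GRCm38.p6, 250 bases before to 50 after an annotated start) were found for 7 of the 8 members, and *Siglec1* was not matched. Among the 21 pairs of members, 1 pair, *Siglec5* and *Cd33*, shared any run of 12 bases or more, and their start regions are shown for that reason. The *Siglec5* region is chr7:43351091-43351390 on the plus strand and the *Cd33* region is chr7:43533122-43533421 on the minus strand, both written 5′ to 3′ with the shared runs in capitals.
Siglec5: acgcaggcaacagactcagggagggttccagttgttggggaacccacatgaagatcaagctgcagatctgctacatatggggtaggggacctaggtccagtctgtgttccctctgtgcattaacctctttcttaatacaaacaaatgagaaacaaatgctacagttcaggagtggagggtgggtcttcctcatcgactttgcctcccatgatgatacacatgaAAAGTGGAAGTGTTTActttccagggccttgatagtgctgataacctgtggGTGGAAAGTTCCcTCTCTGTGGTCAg
Cd33: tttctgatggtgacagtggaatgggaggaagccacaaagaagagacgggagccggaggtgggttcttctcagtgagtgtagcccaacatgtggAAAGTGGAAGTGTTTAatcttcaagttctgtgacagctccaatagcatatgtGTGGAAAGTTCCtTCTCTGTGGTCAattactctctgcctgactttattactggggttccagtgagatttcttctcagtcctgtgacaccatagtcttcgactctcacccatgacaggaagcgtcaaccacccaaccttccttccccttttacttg
The longest shared run, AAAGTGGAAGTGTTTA, has 16 bases and began 27 bases before the *Siglec5* start and 157 bases before the *Cd33* start. The run GTGGAAAGTTCC followed it after 51 bases in *Siglec5* and 52 bases in *Cd33*, counted between first bases, and TCTCTGTGGTCA began 13 bases further on in both. On either strand, each of the first pair of runs was found in 2 of 32851 start regions in the RefSeq table, those of these members, and the third run was found in 9. The first run contains the ETS core letters GGAAGT, which 23.8% of all start regions held on either strand, as did the *Siglech* region. The third contains the RUNX core letters TGTGGT, held by 16.8% of all start regions and also by those of *Mag* and *Siglech*. These letter matches are descriptions of sequence and were not tested for binding.

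**Figure D1:**
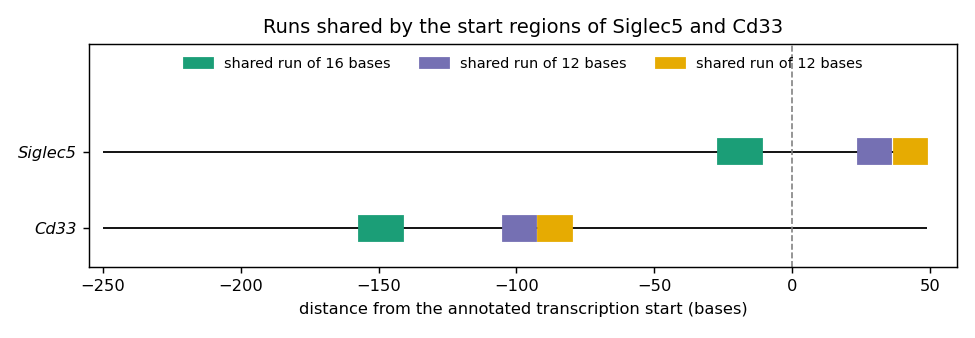
Positions of the 3 runs shared by the start regions of Siglec5 (above) and Cd33 (below), with the distance in bases from each annotated start on the horizontal axis and each coloured block a shared run. The runs keep their order and nearly their spacing (51 and 52 bases, then 13 in both), but lie about the start in Siglec5 and upstream of it in Cd33.

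The targeted gene served as a check of the labels. *Trem2* read 7.64 and 7.45 in TREM2-/- AM against 9.58 and 9.74 in WT AM, a log2 fold change of -2.11 (limma with Benjamini-Hochberg adjustment over 19946 genes, adjusted p = 0.0009). Where its probe set lies relative to the deleted part is not given in the sources used here. The arrays correlated at 0.9947 within TREM2-/- AM, 0.9937 within WT AM and 0.9922 to 0.9932 across the genotypes. AM identity was read from 13 of 14 listed markers, of which 11, among them *Pparg*, *Itgax* and *Marco*, lay above the upper quartile of signal on every array.

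None of the 8 Siglec genes passed the test between TREM2-/- and WT AM. The background was low, since limma called 0.567% of all genes, with 0.431% higher and 0.135% lower in TREM2-/- AM. *Siglec5* alone had an unadjusted limma p under 0.05, as did 11.5% of all genes, 6.9% with lower values in TREM2-/- AM. SAM, the permutation-based array test that the methods name, was rerun on the deposited values and called 0 members and 0.968% of genes when its false-discovery rate was held at 5%. A t-test is named in the methods for comparisons between groups in general, whereas their array section names SAM. Applied here to each gene and unadjusted, the t-test called 2 members, *Siglece* and *Cd22*, and 9.19% of genes. After Benjamini-Hochberg adjustment it called 0 members. The arrays of the genotypes did not overlap for 7 members, with 2 higher and 5 lower in TREM2-/- AM, whereas 42.8% of all genes did not overlap, 17.4% higher and 25.4% lower. The median log2 fold change was -0.07 over the members and -0.02 over all genes, and the median absolute log2 fold change was 0.16 over the members and 0.08 over all genes. With 2 arrays against 2, no gene can reach an exact two-sided permutation p below 0.333 on its own, so the adjusted p-values rest on the spread pooled over genes.

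The intervals describe the precision of each estimate under the fitted model, 1 gene at a time, and do not exclude larger changes over the family. Across the members the 95% intervals of the log2 fold change reached at most 0.41 in either direction, or 1.32-fold, while the smallest absolute change called among all genes was 0.54, or 1.45-fold. That smallest change belongs to this fit and is not a limit of detection. The fit with intensity trend and robust variance called *Siglec5* at -0.21. A p that misses the threshold does not show that the genotypes were alike, and 7 of the 8 intervals included 0. Since AM were measured in bulk, fewer cells expressing a gene and less RNA per cell cannot be told apart.

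**Figure D2:**
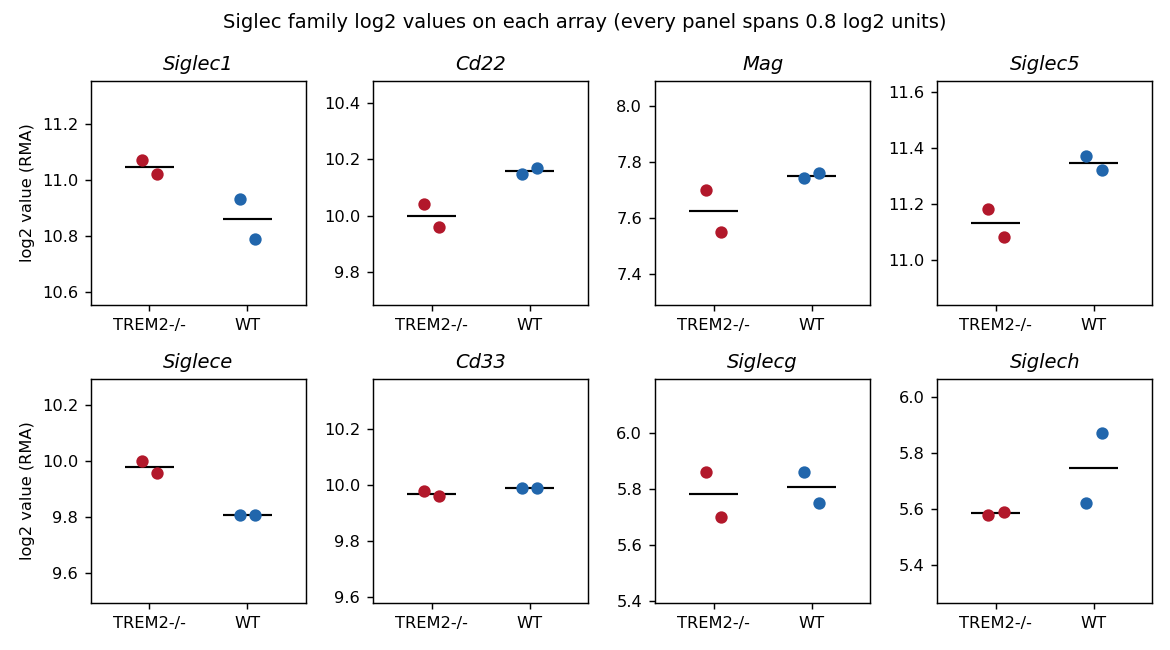
Deposited log2 value (vertical axis, 0.8 log2 units in every panel) of each Siglec gene on each array, TREM2-/- AM in red at left and WT AM in blue at right, with 1 point per array of pooled mice and a bar at the mean. The genotypes overlap in Siglecg alone, and in Cd33 they are separated by 0.0089.

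*Siglec1*, *Cd22* and *Mag* are conserved members with a single counterpart in humans. *Siglec1* encodes sialoadhesin, the long macrophage Siglec that binds α2,3-linked sialic acids, captures sialylated particles and lacks inhibitory motifs. It read 11.07 and 11.02 in TREM2-/- AM against 10.93 and 10.79 in WT AM, above the upper quartile of signal on every array. Both TREM2-/- arrays lay above both WT arrays, with a log2 fold change of 0.19 (SE 0.0819, 95% interval -0.01 to 0.39, adjusted p = 0.460, limma) that ranged between 0.12 and 0.26 with 1 array left out at a time. The groups were separated by 0.0931 log2 units, less than the 0.141 between the WT arrays.

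*Siglec1* is also induced by type I interferon in macrophages, and the interferon-stimulated list was read beside it. Of 21 measured genes of that list, 1 passed limma, and SAM called 3 higher in TREM2-/- AM, namely *Cxcl10*, *Ifit1* and the interferon-induced *Rtp4* (log2 fold change 0.51, adjusted p = 0.122, limma). *Cxcl10*, a chemokine that recruits T cells, read 7.32 and 7.47 in TREM2-/- AM against 6.29 and 6.18 in WT AM (log2 fold change 1.16, adjusted p = 0.00696, limma). The antiviral gene *Ifit1* (0.63, adjusted p = 0.0868) and *Irf7*, a factor driving interferon production (0.11, adjusted p = 0.717) did not pass limma, and the list had a median of 0.13. Some lymph node and splenic macrophages are known for high sialoadhesin. A list of 8 lymph node and splenic macrophage markers, not all of them particular to such cells, was read too. *Timd4* (1.26, adjusted p = 0.0416, limma) and *Spic* (0.77, adjusted p = 0.0486, limma) were higher in TREM2-/- AM, and 6 did not pass. *Spic* read 5.42 and 5.52 in TREM2-/- AM against 4.57 and 4.82 in WT AM, below the median on every array. *Timd4* encodes a phosphatidylserine receptor and *Spic* a transcription factor of red pulp macrophages. The part of either list in the *Siglec1* values was not tested.

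*Cd22* encodes an inhibitory receptor that restrains the B cell receptor. It read 10.04 and 9.96 in TREM2-/- AM against 10.15 and 10.17 in WT AM, again above the upper quartile on every array. Both TREM2-/- arrays lay below both WT arrays, and the log2 fold change was -0.16 (SE 0.0732, 95% interval -0.34 to 0.02, adjusted p = 0.477, limma), or -0.20 to -0.12 with 1 array left out. B cell markers were low beside it. Of 11 measured, 9 lay below the array median on every array and 0 lay above the upper quartile, and none passed the test. *Cd79a*, a chain of the B cell receptor complex, read 3.89 and 4.08 in TREM2-/- AM against 3.91 and 4.03 in WT AM, and *Ms4a1*, which encodes CD20, read 3.93 and 4.20 in TREM2-/- AM against 4.15 and 3.85 in WT AM. The log2 of the 11 markers' summed linear signal was 8.58 to 8.68 in TREM2-/- AM and 8.53 to 8.54 in WT AM.

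*Mag*, next to *Cd22* in the genome, encodes myelin-associated glycoprotein, through which myelinating glia contact axons. It read 7.70 and 7.55 in TREM2-/- AM against 7.74 and 7.76 in WT AM, between the median and the upper quartile. Both TREM2-/- arrays lay below the WT arrays, but they differed more from each other than the nearer of them did from WT. The log2 fold change was -0.12 (SE 0.0821, 95% interval -0.32 to 0.08, adjusted p = 0.635, limma), and it varied between -0.20 and -0.05 with 1 array left out. None of 8 measured oligodendrocyte and Schwann cell markers passed the test. Of these, *Mog*, a myelin surface protein, had a log2 fold change of -0.19 and *Sox10*, the glial lineage factor, of 0.02.

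*Siglec5*, *Siglece*, *Cd33* and *Siglecg* are counted by sequence among the CD33-related Siglecs. *Siglec5* had the largest absolute change of the family. It read 11.18 and 11.08 in TREM2-/- AM against 11.37 and 11.32 in WT AM, above the upper quartile on every array. Both TREM2-/- arrays lay below both WT arrays. The log2 fold change was -0.21 (SE 0.0767, 95% interval -0.40 to -0.03, unadjusted p = 0.0302, adjusted p = 0.377, limma), so the signal was 1.16-fold higher in WT AM (1.02 to 1.32). When the variance followed an intensity trend with robust weights, its adjusted p was 0.0221, in a limma fit that called 3.35% of all genes and 1.45% as lower in TREM2-/- AM. With 1 array left out the change stayed between -0.26 and -0.17, with adjusted p-values of 0.496 to 0.773 by limma. Over the other limma alternatives on all 4 arrays the adjusted p was 0.161 or more.

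Siglec-F is shared by AM and eosinophils, and the markers of both were read beside *Siglec5*. Of the 13 AM markers measured, *Car4*, a carbonic anhydrase, passed the test with 6.85 and 6.85 in TREM2-/- AM against 5.81 and 6.10 in WT AM (log2 fold change 0.90, adjusted p = 0.0353, limma). *Pparg*, the transcription factor of AM identity, had a log2 fold change of -0.02 and *Itgax*, which encodes CD11c, of -0.12, neither passing, and the list had a median of -0.00447. None of the 7 measured eosinophil markers lay above the array median on every array. Of them *Alox15*, a lipoxygenase that macrophages also express, passed with 7.33 and 7.30 in TREM2-/- AM against 5.75 and 5.83 in WT AM (log2 fold change 1.52, adjusted p = 0.00104, limma). *Prg2* and *Epx*, eosinophil granule proteins, had log2 fold changes of -0.01 and -0.01.

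*Siglece* encodes Siglec-E, an inhibitory receptor of neutrophils and macrophages. It read 10.00 and 9.96 in TREM2-/- AM against 9.81 and 9.81 in WT AM, above the upper quartile on every array. Both TREM2-/- arrays lay above the WT arrays, which nearly coincided, at a log2 fold change of 0.17 (SE 0.0711, 95% interval -0.00092 to 0.34, adjusted p = 0.435, limma), or 0.15 to 0.19 with 1 array left out. Of 13 neutrophil markers, none passed limma and 1, *Csf3r*, the receptor for granulocyte colony-stimulating factor, was called by SAM with 7.95 and 7.81 in TREM2-/- AM against 7.34 and 7.14 in WT AM (adjusted p = 0.0701, limma). *S100a9* and *Ly6g*, which define neutrophils, had log2 fold changes of 0.09 and 0.02, and none of the 13 lay above the upper quartile on every array. *Ly6g* lay below the lower quartile on every array. The list had a median of 0.09 and ran from -0.28 to 0.64. The log2 of its summed linear signal was 10.11 to 10.14 in TREM2-/- AM and 9.92 to 9.95 in WT AM. That sum is weighted to the strongest signals, among them *Csf3r* and *Mmp8*. *Mmp8* read 8.01 and 8.01 in TREM2-/- AM against 7.79 and 7.81 in WT AM. The sum was not tested and is not a count of neutrophils.

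*Cd33*, whose human counterpart is a myeloid marker and a risk locus for Alzheimer's disease, had the smallest change. It read 9.98 and 9.96 in TREM2-/- AM against 9.99 and 9.99 in WT AM, above the upper quartile on every array. The groups were separated by 0.0089 log2 units, less than the 0.0279 between the TREM2-/- arrays. The log2 fold change was -0.02 (SE 0.0705, 95% interval -0.19 to 0.15, adjusted p = 0.929, limma), and it lay between -0.04 and -0.01 with 1 array left out. The pair that shared runs in their start regions thus had changes of -0.21 for *Siglec5* and -0.02 for *Cd33*, and the difference between these was not tested.

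*Siglecg* encodes Siglec-G, which restrains B-1 cells and responds to CD24 in sterile injury. It read 5.86 and 5.70 in TREM2-/- AM against 5.86 and 5.75 in WT AM, around the array median. It was the member whose genotypes overlapped, at a log2 fold change of -0.03 (SE 0.0887, 95% interval -0.24 to 0.19, adjusted p = 0.939, limma). Its sign turned when the second TREM2-/- array or the first WT array was left out.

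*Siglech* encodes Siglec-H, a DAP12-coupled receptor of plasmacytoid dendritic cells and microglia. It read 5.58 and 5.59 in TREM2-/- AM against 5.62 and 5.87 in WT AM, around the array median. The TREM2-/- arrays were close together and lay below both WT arrays, which differed by 0.247. The log2 fold change was -0.16 (SE 0.0994, 95% interval -0.41 to 0.08, adjusted p = 0.596, limma), and without 1 array it lay between -0.29 and -0.04. Of 10 measured plasmacytoid dendritic cell markers none passed the test. *Tcf4*, the defining transcription factor of these cells, had a log2 fold change of 0.08 and *Bst2*, the surface protein tetherin, of -0.03. The list ran from -0.22 to 0.35 with a median of 0.003, and 5 of the 10 lay below the array median on every array.

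**Figure D3:**
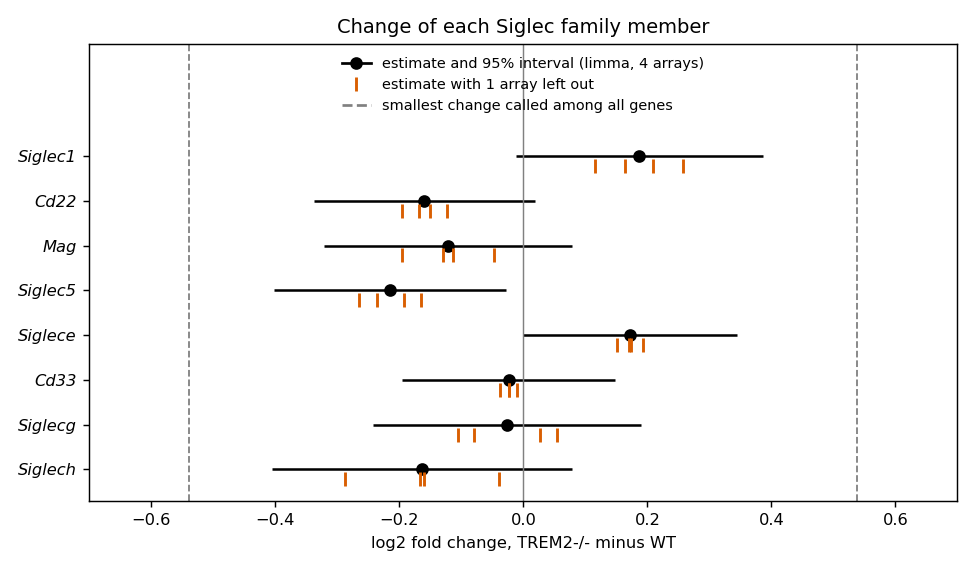
Log2 fold change (TREM2-/- minus WT, horizontal axis) of each Siglec gene with its 95% interval from limma over 4 arrays (black) and the estimates with 1 array left out (orange ticks), against the smallest change called among all genes (0.54, dashed). Every interval ends inside the dashed lines, and that of Siglec5 is the only one that leaves out 0.

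Set among all genes, 6 members had changes above the median in size and none reached the smallest called change. The absolute change of *Siglec5* exceeded that of 87.8% of all genes, those of *Siglec1*, *Siglece*, *Siglech* and *Cd22* exceeded 77.8 to 83.4%, and that of *Mag* exceeded 66.2%. *Siglecg* and *Cd33* exceeded 16.8 and 15.2%. The median SE was 0.0793 over the members and 0.0832 over all genes. The genes whose profile over the 4 arrays was closest to that of *Siglec5*, after centring each on its own mean, were *Wnk2*, a WNK kinase, *Pter* and *Agfg2*, at root mean square distances of 0.00631, 0.0068 and 0.00747 log2 units. None of these passed, with adjusted p-values of 0.368 to 0.400 by limma. This follows from their choice by likeness to *Siglec5* on the same arrays and is no separate result.

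**Figure D4:**
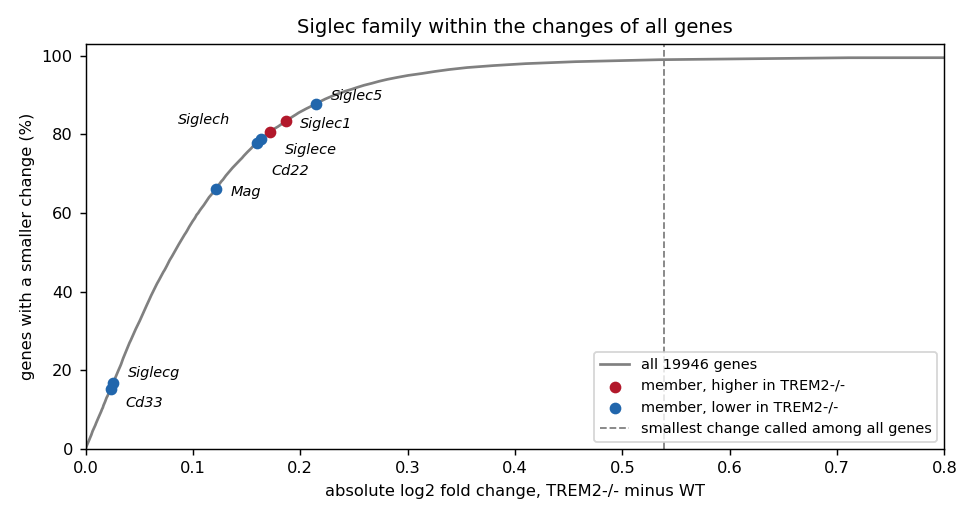
Percentage of all 19946 genes with a smaller absolute log2 fold change (vertical axis) against the absolute log2 fold change between TREM2-/- and WT AM (horizontal axis), with all genes as the grey curve and each Siglec gene as a point, red where higher and blue where lower in TREM2-/- AM. The members run from 15.2% for Cd33 to 87.8% for Siglec5, and all lie left of the smallest called change (0.54, dashed).

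The machinery around the Siglecs was read from lists of signalling partners, ligand-making enzymes and ligand carriers. Of 14 measured signalling partners none passed the test in either direction, and 10 lay above the upper quartile on every array. *Tyrobp* read 12.16 and 12.11 in TREM2-/- AM against 12.10 and 12.21 in WT AM, so the groups overlapped. Its log2 fold change was -0.02 (adjusted p = 0.957, limma), as was that of *Ptpn6*, which encodes SHP-1 (-0.02, adjusted p = 0.949), and that of the kinase *Syk* was 0.11 (adjusted p = 0.646).

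Among 20 sialyltransferases, the Golgi enzymes that add sialic acid to glycans, none passed limma. *St3gal5*, which makes the ganglioside GM3, had the lowest adjusted p and was called by SAM. It read 8.26 and 8.20 in TREM2-/- AM against 7.84 and 7.72 in WT AM, without overlap (log2 fold change 0.46, adjusted p = 0.104, limma). *St6gal1*, the enzyme making the α2,6-linked ligands of CD22, had a log2 fold change of 0.18 (adjusted p = 0.453). The 20 enzymes ran from -0.44 to 0.46, with a median of 0.02. None of 15 genes of sialic acid synthesis, modification and removal passed, with log2 fold changes of -0.21 to 0.11. The value was -0.08 for *Gne*, the entry enzyme of the pathway, -0.08 for *Cmah*, which makes the hydroxylated form of sialic acid, and -0.04 for the lysosomal sialidase *Neu1*. None of 12 genes for proteins that carry Siglec ligands passed, with values of -0.14 for *Cd24a*, 0.07 for *Spn*, encoding CD43, and 0.09 for *Ptprc*, encoding CD45.

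Markers of interstitial and of monocyte-derived macrophages were read across all members. Of 16 measured, 8 were higher in TREM2-/- AM and 8 did not pass the test, while limma called 0.431% of all genes as higher. The list was chosen with earlier results of these data known, so its count is no separate support. The most changed were *Pf4* (log2 fold change 1.98), *Apoe* (1.67), *Tmem176b* (1.26) and *H2-Aa* (1.02), which encode a platelet chemokine, a lipid carrier, a membrane channel-like protein and an MHC class II chain. The log2 of the list's summed linear signal was 14.43 to 14.45 in TREM2-/- AM and 13.88 to 13.89 in WT AM. Of the 16 genes, 7 lay above the upper quartile on every array, *Csf1r*, *Cd74* and *H2-Aa* among them. Such strong signals weigh most in the sum, so it is not a measure of these macrophages alone. The defining monocyte receptor *Ccr2* was higher by 0.81 and the interstitial macrophage markers *Lyve1* and *Folr2* had values of -0.09 and -0.07. The signal of this last pair was low, at 4.63 to 4.80 for *Lyve1* and 4.60 to 4.91 for *Folr2*, below the median on every array. Their small changes therefore say little about interstitial macrophages. The part of these markers in the Siglec values was not tested.

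**Figure D5:**
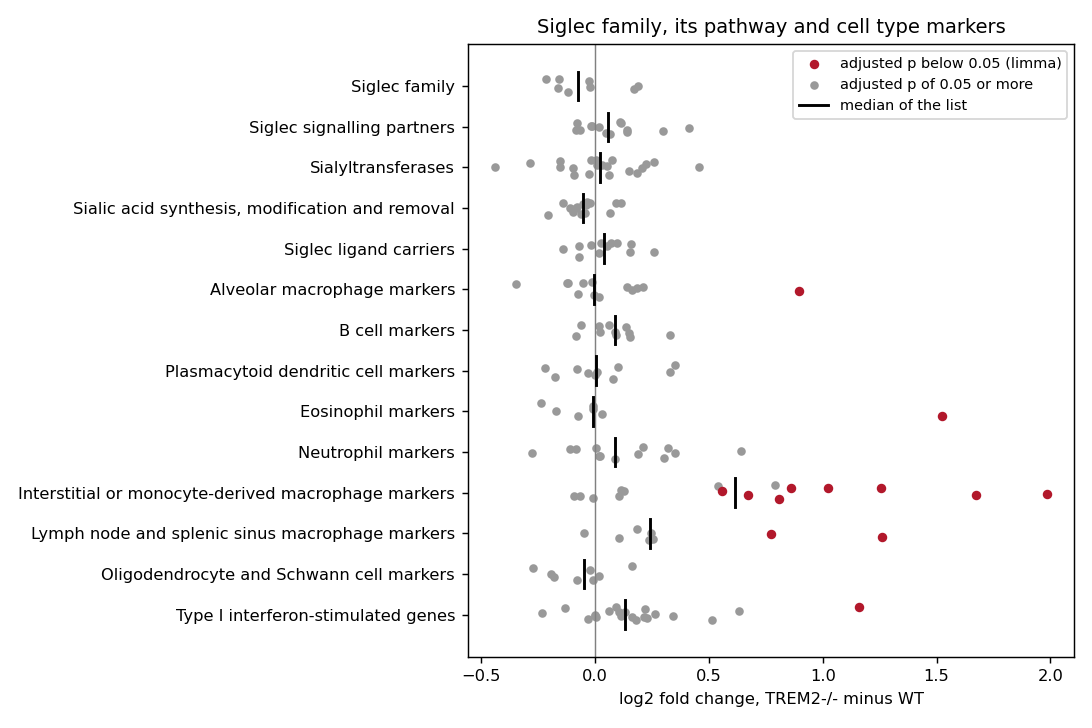
Log2 fold change (TREM2-/- minus WT, horizontal axis) of every measured gene of the Siglec family and of 13 lists of pathway genes and cell type markers, 1 row per list, with genes that passed limma at an adjusted p of 0.05 in red, the rest in grey and the list median as a bar. No Siglec, signalling partner, sialic acid gene or ligand carrier is red, while 8 of 16 interstitial or monocyte-derived macrophage markers are. Among all genes limma called 0.567%. The lists were chosen with earlier results of these data known, so the contrast between rows is descriptive.

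Genes beside the members were compared as well. Of 12 neighbouring genes outside the family in RefSeq order, 11 were tested and none passed, with log2 fold changes of -0.32 for *Ffar1*, a fatty acid receptor next to *Cd22*, to 0.43 for *Ceacam18*, an adhesion molecule relative next to *Siglece*, and a lowest adjusted p of 0.263 by limma.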

How the data were processed

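The authors hybridised total RNA of pooled mice to Affymetrix whole-transcript arrays, combined the cell intensity files and normalised them by robust multi-array averaging (RMA), and they deposited log2 values for 35557 rows on 4 arrays. The submitters' notes name RMA, without a version, and mm9. Their methods called genes with SAM at a 5% false-discovery rate.

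Rows were named from the platform annotation. 21797 probe sets had 1 symbol, 1613 had several and were not used, and 12147 were not listed. Of those with 1 symbol, 21698 matched RefSeq by gene ID. For genes with several probe sets that of the highest mean was kept, leaving 19946 genes. *Siglec5* was matched as *Siglecf*. The number of arrays limits the precision. The labels call the 2 arrays of a genotype biological duplicates of pooled mice.

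limma 3.58.1 in R 4.3.3 compared TREM2-/- with WT over all genes (two-sided, Benjamini-Hochberg, threshold 0.05). SAM, a t-test of each gene, other variance models, normalisations and filters, a replicate block and leaving out each array were alternatives. The text names all 8 members and *Trem2*, of each list the passing genes (up to 4 with the largest change) and up to 3 defining members, the genes closest to *Siglec5* in profile, and neighbours of members. Some genes that weigh heavily in a summed signal are named too. The members and lists were chosen with earlier results of these data known. Start regions were searched on both strands.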

Additional observations from a re-analysis of the deposited data

How the results depend on the processing

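The call changed for 3 members, each under a single alternative. With an intensity trend and robust variance *Siglec5* passed (-0.21, adjusted p = 0.0221, limma), while the limma fit called 379 genes higher and 290 lower in TREM2-/- AM, against 86 and 27 in the reported fit. Under the t-test of each gene without adjustment, *Siglece* (0.17) and *Cd22* (-0.16) passed, with 782 genes called higher and 1052 lower, and after Benjamini-Hochberg adjustment it called 0 and 0. SAM called 174 higher and 19 lower. A filter on a mean log2 value of at least 6 kept 10783 genes, left out *Siglecg* and *Siglech*, and called 207 higher and 150 lower, and testing all 35557 rows called 21 and 2. Leaving out 1 array gave 22 to 43 genes higher and 4 to 7 lower. It turned the sign of *Siglecg*, which ranged between -0.11 and 0.05 and was 0.0536 without the second TREM2-/- array and 0.0272 without the first WT array. The remaining 105 comparisons of a member with an alternative kept direction and side of the threshold. The causes of these changes were not tested.

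No strong effect shared by replicate number was seen, since the deviations of the first TREM2-/- and first WT array correlated at -0.0517 over genes. With 2 arrays per genotype this is a single contrast, and it cannot show whether the arrays were prepared in pairs. With the replicate number as a block limma called 98 genes higher and 31 lower, and the block changed the call of no member. The precision is limited by 2 arrays per genotype.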

Other observations

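*Siglec15*, a DAP12-coupled Siglec known from osteoclasts, was not among the 8 members and was looked up after values had been seen. It read 6.70 and 6.70 in TREM2-/- AM against 6.94 and 7.03 in WT AM, so both TREM2-/- arrays lay below both WT arrays. The log2 fold change was -0.28 (95% interval -0.47 to -0.10, adjusted p = 0.255, limma), a larger absolute change than that of any of the 8 members, and it did not pass the test.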
